A study of Homo sapiens with 4 samples.

Results

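The genes described here encode 9 transcription factors that mark lung and epithelial lineages: NKX2-1, FOXA1, FOXA2, GATA6, SOX2, SOX9, KLF5, ELF3 and EHF. They were chosen by gene symbol, and each was found once among the 58174 genes of the expression table. RNA sequencing was done in 2 human lung cancer cell lines transfected for 48 h with a control siRNA (siCTR) or with an siRNA against CDH3 (siCDH3), which encodes P-cadherin. This gave 4 libraries in 4 groups, with 1 library each: H1299 siCTR, H1299 siCDH3, HCC827 siCTR and HCC827 siCDH3. H1299 was derived from a nodal metastasis of a non-small cell lung carcinoma. HCC827 comes from a lung adenocarcinoma with an activating deletion in EGFR. The design asked how expression differs in each line after short-term silencing of CDH3. Values are TPM, a measure of transcript abundance scaled by transcript length and by the total of the library, so that levels of different genes can be set side by side.

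NKX2-1 (also called TTF-1) is a homeodomain factor needed to form the lung, and it drives surfactant and secretory genes in alveolar and club cells. FOXA1 and FOXA2 are forkhead factors that open chromatin in endodermal tissues, and GATA6 is a zinc finger factor of the same tissues. SOX2 acts in the proximal airway and in squamous cells, whereas SOX9 marks the distal tips of the developing lung. KLF5, ELF3 and EHF are factors of differentiated epithelium, and ELF3 and EHF are relatives in the ETS family. Loss of such factors is a known feature of poorly differentiated lung tumours.

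Promoter sequences are shown for ELF3, the factor with the highest level in HCC827, and for both annotated starts of NKX2-1, the factor with the largest difference between siRNAs. They run from 250 bases before the start to 50 bases after it, 5′ to 3′, from RefSeq on GRCh38.p14. Capitals mark the motifs found on either strand. ELF3 lies at chr1:202010337-202010636 on the + strand, and NKX2-1 at chr14:36520183-36520482 (upstream start) and chr14:36519507-36519806 (downstream start) on the - strand.
ELF3: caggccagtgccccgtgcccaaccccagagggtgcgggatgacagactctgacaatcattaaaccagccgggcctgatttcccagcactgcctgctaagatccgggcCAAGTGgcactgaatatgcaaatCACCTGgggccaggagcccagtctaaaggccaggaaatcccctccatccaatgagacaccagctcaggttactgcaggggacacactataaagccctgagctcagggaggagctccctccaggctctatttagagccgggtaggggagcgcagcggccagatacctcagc
NKX2-1 upstream start: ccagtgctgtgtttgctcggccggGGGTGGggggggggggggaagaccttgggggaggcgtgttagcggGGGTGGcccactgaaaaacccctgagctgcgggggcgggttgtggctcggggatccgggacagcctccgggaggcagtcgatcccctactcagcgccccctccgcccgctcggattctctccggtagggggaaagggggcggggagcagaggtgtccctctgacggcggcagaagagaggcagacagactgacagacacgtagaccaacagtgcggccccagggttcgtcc
NKX2-1 downstream start: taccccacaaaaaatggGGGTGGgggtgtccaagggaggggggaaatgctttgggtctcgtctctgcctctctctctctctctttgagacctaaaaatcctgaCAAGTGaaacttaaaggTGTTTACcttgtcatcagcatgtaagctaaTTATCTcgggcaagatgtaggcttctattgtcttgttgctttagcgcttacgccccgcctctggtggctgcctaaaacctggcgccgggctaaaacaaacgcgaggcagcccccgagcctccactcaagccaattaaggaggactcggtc

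Of the 9 factors, 7 had a promoter in that table, all but FOXA2 and SOX9, with 10 starts between them. The motifs searched on both strands were CCGGAAG for ETS factors, TGTTTAC for forkhead factors, AGATAA for zinc finger factors of the GATA6 kind, CACCTG for the E-box read by ZEB and SNAI factors, CCACCC for KLF factors, ACAATG for SOX factors, AACCGGTT for grainyhead factors and CAAGTG for NKX2-1. The downstream NKX2-1 start held the forkhead, NKX2-1, zinc finger and KLF motifs, which occur in 3.42%, 11.5%, 10.3% and 34.3% of all 35116 promoters of this length. The upstream NKX2-1 start held the KLF motif only. The ELF3 promoter held the NKX2-1 motif and the E-box, the latter present in 20.6% of all promoters. The NKX2-1 motif stood in 5 of the 10 starts, and the ETS and grainyhead motifs, found in 10.3% and 0.134% of all promoters, in 0 of the 10. No motifs overlapped each other in the 3 sequences shown. The ELF3 promoter had 7 CpG dinucleotides and the NKX2-1 promoters 21 and 11, beside a median of 14 over all promoters, while FOXA1 had 34. A match describes the letters of a window and does not show that a factor binds there.

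In HCC827 the CDH3 transcript stood at 173 TPM with siCTR and 78.8 TPM with siCDH3, so that 45.6% was left. In H1299 it stood at 1.21 and 0.169, under a TPM of 5 in both libraries. H1299 thus had little CDH3 transcript to silence, and the degree of silencing there rests on very low values. Columns summed to between 999859 and 999943, and between 10713 and 11329 genes reached a TPM of 5 in a library. Read depth is unknown, so no counting error can be given for low TPM. Mitochondrially encoded genes took 13.5% and 16.4% of TPM in the H1299 libraries and 36.2% and 34.4% in those of HCC827 (siCTR, then siCDH3). A larger mitochondrial share leaves a smaller part of the fixed total to the remaining genes. Of 15 markers of blood, endothelial and fibroblast cells, 0 reached a TPM of 5 in the H1299 libraries and 1 (COL1A1, at 5.58 and 5.87) did so in those of HCC827. Their summed TPM was 5.94 and 4.73 in H1299 and 8.87 and 8.81 in HCC827. In bulk RNA, fewer cells expressing a gene and less RNA per cell cannot be told apart.

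The lines held almost opposite sets of these factors. HCC827 had high ELF3, EHF, SOX2, KLF5, FOXA1 and NKX2-1, and low SOX9 and GATA6, while H1299 had high SOX9, moderate GATA6 and low KLF5, with the other factors near 0. In HCC827 siCTR the order was ELF3, EHF, SOX2, KLF5, FOXA1, NKX2-1, GATA6, FOXA2 and SOX9. In HCC827 siCDH3 the order of EHF, SOX2, KLF5 and FOXA1 among themselves was different, and the other places were the same. In H1299 siCTR the order was SOX9, GATA6, KLF5, FOXA1, SOX2, ELF3, NKX2-1, FOXA2 and EHF, and in H1299 siCDH3 NKX2-1 and FOXA2 changed places. With 1 library per group, no spread can be put on neighbours in these orders.

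**Figure D1:**
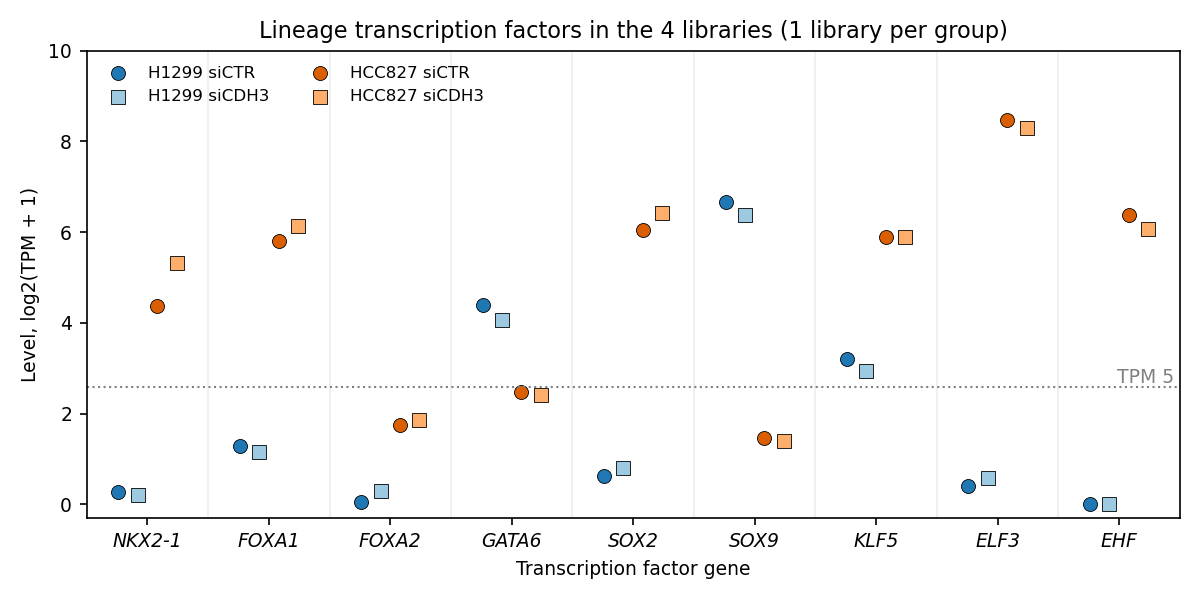
Level of each factor, as log2(TPM + 1), in the 4 libraries, with circles for siCTR, squares for siCDH3, blue for H1299 and orange for HCC827; the dotted line marks a TPM of 5. ELF3 is the highest point in HCC827 (357 TPM in siCTR) and SOX9 the highest in H1299 (101 TPM in siCTR), and the points of the 2 lines do not overlap for any factor.

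Of the lung endoderm factors, NKX2-1 reached only 0.206 TPM (siCTR) and 0.145 TPM (siCDH3) in H1299, against 19.7 and 39.0 in HCC827; in all pairs below siCTR comes first. FOXA1 was at 1.43 and 1.21 in H1299 and at 55.2 and 69.4 in HCC827. Both genes were low in each H1299 library and well above 5 TPM in each HCC827 library. FOXA2 was low everywhere, at 0.0405 and 0.232 in H1299 and 2.35 and 2.62 in HCC827, and did not reach a TPM of 5 in any library. It therefore entered no count or fit at this filter. GATA6 went the other way, with 20.1 and 15.7 in H1299 and 4.52 and 4.27 in HCC827.

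The SOX factors split the lines in opposite directions. SOX2 had a TPM of 0.546 and 0.732 in H1299 and of 65.0 and 84.2 in HCC827. SOX9 had 101 and 82.1 in H1299 and 1.73 and 1.62 in HCC827. Among 1057 genes that the deposited table annotates as DNA-binding transcription factors, 53 had a higher TPM than SOX9 in H1299 siCTR, and 696 did in HCC827 siCTR.

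Of the epithelial factors, ELF3 was at 0.327 and 0.492 in H1299 and 357 and 313 in HCC827. In each HCC827 library only 6 annotated transcription factors had a higher TPM than ELF3. EHF was listed at 0 in both H1299 libraries and had 82.5 and 65.8 in HCC827. KLF5 was the one factor of this group present in both lines, with 8.23 and 6.71 in H1299 and 58.2 and 58.8 in HCC827.

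The difference between lines was then fitted with limma to log2(TPM + 1) of 12941 genes, with the siRNA as a block. These genes reached a TPM of 5 in at least 1 library. The error of each gene starts from how far its line difference changes between the siRNA arms. limma moderates it toward an error shared over all genes. ELF3 was 7.90 ± 0.17 (SE) log2 units higher in HCC827 than in H1299 (adjusted p = 5.74e-05), SOX2 5.52 ± 0.16 (adjusted p = 6.62e-05), FOXA1 4.76 ± 0.18 (adjusted p = 9.19e-05), NKX2-1 4.62 ± 0.28 (adjusted p = 0.000250) and KLF5 2.82 ± 0.16 (adjusted p = 0.000220). SOX9 was lower in HCC827, with a difference of -5.11 ± 0.16 (adjusted p = 7.31e-05), as was GATA6, with -1.80 ± 0.16 (adjusted p = 0.000830). EHF passed with an adjusted p of 6.47e-05, and no fold is given because H1299 is listed at 0. Of the 8 factors fitted, 6 were called higher and 2 lower in HCC827, where 62.9% of all genes were called (21.5% higher, 41.3% lower). Over all genes the HCC827 to H1299 log2 ratio had a median of -0.39 in siCTR and -0.23 in siCDH3. Relative to these medians, GATA6, the smallest of the differences, was at -1.54 and -1.43.

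These calls compare 2 cell lines over 2 libraries each, and most factors entered the fit through the line in which they are high, so the number called is not evidence about the set. Sizes of the differences can be read against all genes. In siCTR, 14 of 12601 genes had a higher HCC827 to H1299 ratio than ELF3, 105 a higher one than SOX2, 201 a higher one than FOXA1, 276 a higher one than NKX2-1 and 654 (5.19%) a higher one than KLF5, the smallest of the higher ones. For EHF the number was 57. H1299 is listed at 0 for EHF and is under 1 TPM for ELF3, SOX2 and NKX2-1, so these numbers depend on the pseudocount of 1. With a pseudocount of 0.1 the siCTR log2 ratio was 6.02 for NKX2-1 and 5.18 for FOXA1, the reverse of their order here. At the other end 72 genes had a lower ratio than SOX9 and 1364 a lower one than GATA6. Past 2-fold in HCC827 siCTR were 13.5% of all genes on the higher side and 27.8% on the lower side. For the 653 annotated transcription factors compared, these shares were 11.5% and 32.5%.

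**Figure D2:**
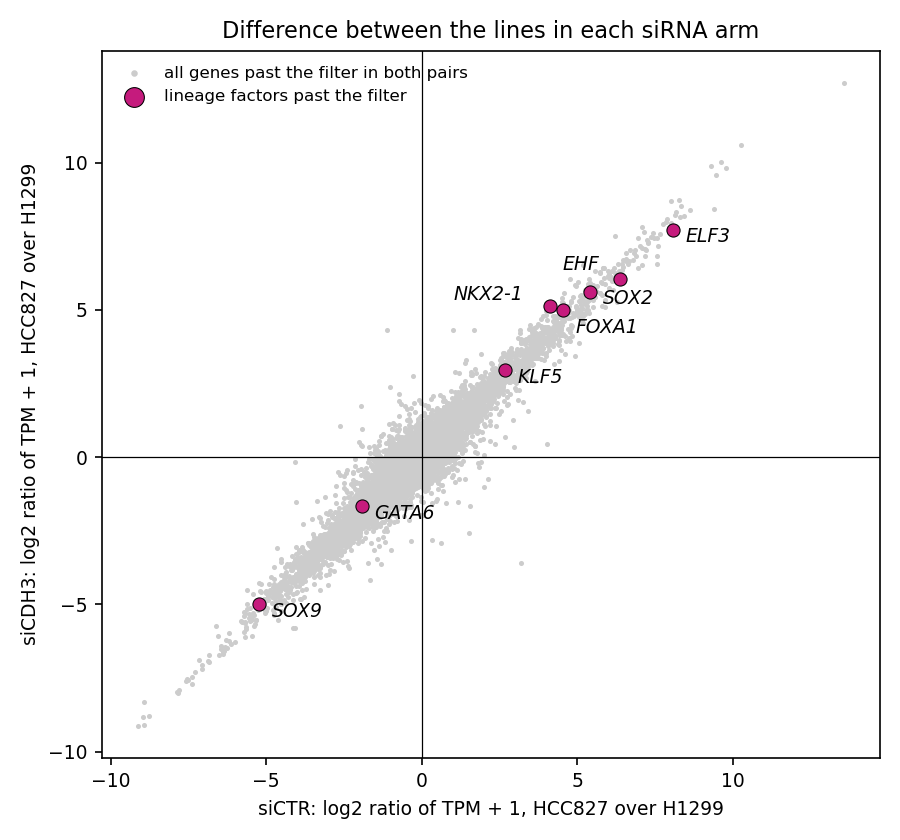
Log2 ratio of TPM + 1, HCC827 over H1299, in the siCTR libraries (horizontal) and in the siCDH3 libraries (vertical), for all genes past the filter in both pairs (grey) and for the 8 factors past it (magenta). ELF3 lies near the upper end at 8.07 and 7.72 and SOX9 near the lower end at -5.22 and -4.99, and NKX2-1, at 4.10 and 5.13, has the largest gap between the 2 arms among the factors.

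Position and transcription from the other strand were examined around the factors. In the order of coding genes on chromosome 14, NKX2-1 is followed by NKX2-8, a related homeodomain gene, and PAX9, a paired-box gene. NKX2-8 had a TPM of 0.155 and 0.0590 in H1299 and 6.01 and 6.20 in HCC827. PAX9 had 1.58 and 1.31 in H1299 and 13.1 and 8.88 in HCC827. On the other side MBIP, a signalling adaptor gene named here after its values were seen, was at 18.6 and 16.0 in H1299 and 21.9 and 21.5 in HCC827. The 2 homeobox and paired-box neighbours were thus low in the line with low NKX2-1, and MBIP was at similar levels in both lines.

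Noncoding genes beside the factors were at low levels, on the side of the line where the factor is high. NKX2-1-AS1 was listed at 0 in H1299 and had 1.59 and 1.83 in HCC827, and SFTA3, next to NKX2-1, was listed at 0 in H1299 and had 7.92 and 6.35 in HCC827. ELF3-AS1 had 0.156 and 0.214 in H1299 and 4.36 and 2.96 in HCC827. GATA6-AS1 had 4.14 and 5.78 in H1299 and 0.245 and 0.458 in HCC827, so that in H1299 GATA6 itself was lower and its antisense gene higher with siCDH3. SOX9-AS1 had 2.51 and 1.95 in H1299, was listed at 0 in HCC827 siCTR and had 0.209 in HCC827 siCDH3. SOX2-OT, which spans SOX2, had at most 1.46. The coding gene TTC6, which overlaps FOXA1 on the other strand, is named here after its values were seen. It had 0.0167 and 0.0226 in H1299 and 0.929 and 2.50 in HCC827. Whether counting used the strand is not given in the sources used here, so reads of a factor and of a gene that overlaps it may not have been told apart.

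Genes that such factors are known to regulate, from lists of textbook targets and markers, followed the lines unevenly. The counts of calls in these lists stand beside 21.5% of all genes called higher and 41.3% called lower in HCC827, and genes that passed the filter only through the line where they are high had to differ. Of 20 markers of alveolar and club cells, 7 were fitted by limma, and 4 were called higher and 1 lower in HCC827. NAPSA, an aspartic protease of alveolar type II cells and a target of NKX2-1, had 0.858 and 1.61 in H1299 and 131 and 131 in HCC827. SLC34A2, a phosphate transporter of the same cells, was listed at 0 in H1299 and had 15.3 and 17.8 in HCC827. The lipid transporter gene ABCA3 was the one called lower, with 38.6 and 36.4 in H1299 and 6.35 and 6.82 in HCC827. The defining surfactant and club cell genes did not reach a TPM of 5 in HCC827. SFTPC had 0 and 0.0797 there, SFTPB 2.24 and 2.29 and SFTPA2 1.75 and 2.15, while in H1299 SFTPB was listed at 0 and SFTPA2 had 0 and 0.128. SCGB1A1 was listed at 0 in all 4 libraries. HCC827 thus had NKX2-1 and NAPSA with the surfactant protein C transcript at or near 0.

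Among 27 genes of epithelial differentiation, limma called 22 higher and 1 lower in HCC827, where 21.5% of all genes were called higher. All 27 reached a TPM of 5 in each HCC827 library and 11 did in each H1299 library, so the other 16 passed the filter only through HCC827. KRT19 (keratin 19) had 0.874 and 0.743 in H1299 and 1627 and 1573 in HCC827. Of 28 other factors of epithelial identity, 22 were fitted, 13 called higher and 3 lower. GRHL2, a grainyhead factor of epithelial junction genes, was listed at 0 in H1299 and had 21.3 and 22.0 in HCC827. CREB3L1, a factor of the secretory pathway, was lower in HCC827, at 34.8 and 41.7 in H1299 and 0.400 and 0.248 in HCC827. Of 13 factors of the mesenchymal state, 8 were fitted, and 5 were called lower and 1 higher in HCC827, beside 41.3% and 21.5% of all genes. TWIST1 had 36.0 and 38.2 in H1299 and 0 and 0.0892 in HCC827, and ZEB1 34.7 and 20.6 in H1299 and 0.250 and 0.276 in HCC827. SNAI1 was the one called higher, at 1.97 and 2.57 in H1299 and 10.7 and 11.0 in HCC827.

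Genes of other lineages were examined next. Of 20 gut and liver genes, a group that NKX2-1 is known to hold down, 2 were fitted and both were called higher in HCC827, among them HNF4G, at 1.54 and 0.999 in H1299 and 26.0 and 23.3 in HCC827. Of 18 squamous and basal markers 4 were fitted, 3 called higher and 1 lower. TP63, the defining basal factor, had 0.175 and 0.208 in H1299 and 4.12 and 3.64 in HCC827, and KRT5 was at 0 in HCC827. Of 16 markers of ciliated and neuroendocrine cells 7 were fitted, 0 called higher and 5 lower in HCC827, beside 21.5% and 41.3% of all genes.

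Other members of the same gene families were high in either line. Of 33 relatives 16 were fitted, 5 called higher and 7 lower in HCC827, beside 21.5% and 41.3% of all genes. SOX4 had 2.33 and 1.60 in H1299 and 40.9 and 44.9 in HCC827, whereas SOX12 had 92.6 and 85.1 in H1299 and 19.3 and 18.6 in HCC827. KLF2 had 52.4 and 67.2 in H1299 and 1.32 and 1.14 in HCC827, the reverse of KLF5. SPDEF, a further epithelial ETS factor, had 0 and 0.149 in H1299 and 9.49 and 7.78 in HCC827. FOXA3 was at 1.21 and 0.660 in H1299 and at 0 and 0.0400 in HCC827.

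The siRNA against CDH3 went with small differences in most of the factors. In HCC827, NKX2-1 had 19.7 TPM in siCTR and 39.0 in siCDH3, a 1.98-fold difference in TPM and a log2 ratio of 0.95 on the TPM + 1 scale. Of 11043 genes compared in this line, 125 (1.13%) had a higher ratio, and of 546 annotated transcription factors 4 did. SOX2, at 65.0 and 84.2, had a log2 ratio of 0.37, and FOXA1, at 55.2 and 69.4, one of 0.32. These 3 were the higher ones. EHF had 82.5 in siCTR and 65.8 in siCDH3 (-0.32), ELF3 had 357 and 313 (-0.19), and KLF5, at 58.2 and 58.8, differed least (0.01).

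Of the 6 factors compared in HCC827, 0 were past 2-fold, the size that 1.84% of all genes passed in either direction, and only NKX2-1 was past 1.5-fold, the size passed by 5.89%. All genes had a median of 0.03, and their 5th and 95th percentiles were -0.41 and 0.48, a range that held each of these factors but NKX2-1. The other 3 factors were under a TPM of 5 in both HCC827 libraries: FOXA2 had 2.35 and 2.62, GATA6 4.52 and 4.27 and SOX9 1.73 and 1.62. With 1 library per group there is no replicate check and no test within a line.

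In H1299 the 3 factors compared were all lower in siCDH3. The log2 ratio was -0.30 for SOX9, at 101 and 82.1 TPM, -0.33 for GATA6, at 20.1 and 15.7, and -0.26 for KLF5, at 8.23 and 6.71. The median of all 11622 genes was itself lower, at -0.11, and relative to it they were at -0.19, -0.23 and -0.15. Of these 3 factors 0 were past 2-fold, where 2.46% of all genes were. Annotated transcription factors had a median of -0.16 in this line, and of 604 of them 148 had a lower ratio than GATA6. The other 6 factors were under 5 TPM in both H1299 libraries, where ratios rest on very low values.

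**Figure D3:**
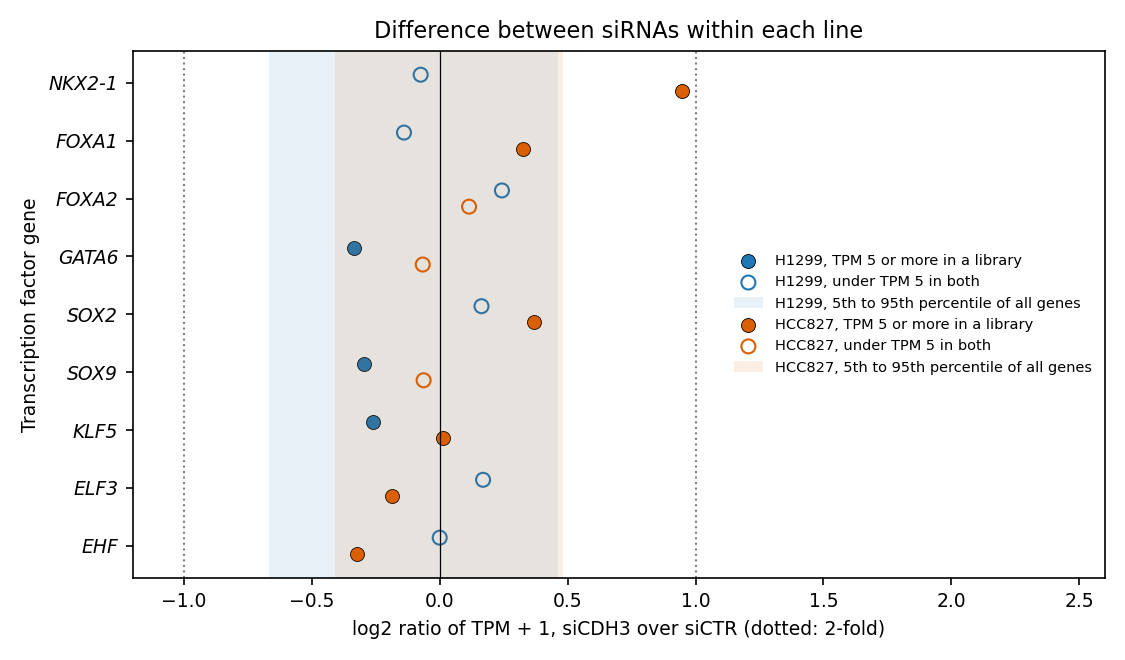
Log2 ratio of TPM + 1, siCDH3 over siCTR, for each factor in H1299 (blue) and HCC827 (orange), with open circles where both libraries are under a TPM of 5, dotted lines at 2-fold and shaded bands from the 5th to the 95th percentile of all genes. NKX2-1 in HCC827, at 0.95, is the only filled point outside its band.

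Over both lines, limma with the cell line as a block called 0 of the 8 factors for the siRNA, where 0.00773% of all genes, 1 of 12941, were called. Of these factors 0 had an unadjusted p under 0.05, which 4.49% of all genes had. The estimate was 0.44 ± 0.28 (SE) for NKX2-1, 0.27 ± 0.16 for SOX2, -0.20 ± 0.16 for GATA6 and -0.18 ± 0.16 for SOX9. Adjusted p-values for the 8 lay between 0.950 and 0.997. Apart from KLF5, each factor was under a TPM of 5 in both libraries of 1 line, where its ratio rests on low values. H1299 also had little CDH3 transcript to silence. The fit therefore cannot decide whether a factor responded in the line where it is expressed. Here the error starts from how far the response of one line departs from that of the other, with 1 residual degree of freedom per gene. This is the same error as in the fit of the line difference, moderated toward the error shared over all genes. A response seen in 1 line only therefore gets a wider error, though less wide than from that gene alone.

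For NKX2-1 the log2 ratio in HCC827 exceeded that in H1299 by 1.02, and the other fitted factors differed by less than 1 between lines, where 4.62% of all genes differed by at least 1. The H1299 side of this value comes from 0.206 and 0.145 TPM. The difference between lines cannot be tested with 1 library per group. It was 0.85 with a pseudocount of 5, 0.91 with the median of all genes set to 0 and 0.999 without mitochondrially encoded genes.

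Targets and markers of NKX2-1 did not show a difference of that size in HCC827. Of the 20 alveolar and club cell markers 7 were compared, 0 were past 2-fold, and the median log2 ratio was 0.13 beside 0.03 for all genes. NAPSA was at 131 in both libraries (log2 ratio 0.00), SLC34A2 at 15.3 and 17.8 (0.21), LPCAT1, a lipid-remodelling enzyme gene of surfactant synthesis, at 85.1 and 95.9 (0.17), and CTSH, the cathepsin H gene, at 129 and 145 (0.17). NKX2-8, its neighbour, was at 6.01 and 6.20, and PAX9 at 13.1 and 8.88 (-0.51). SFTA3 was at 7.92 and 6.35 (-0.28). The ratio of SFTA3 lay within the range from the 5th to the 95th percentile of all genes. That of PAX9 lay below the 5th percentile (-0.41), in the direction opposite to NKX2-1. NKX2-1-AS1 was at 1.59 and 1.83. None of these neighbours differed by as much as NKX2-1.

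Other epithelial genes in HCC827 mostly differed little between siRNAs. Of 27 epithelial differentiation genes 0 were past 2-fold higher and 1 lower, beside 1.01% and 0.833% of all genes. The one was the tight junction gene CLDN4, with 164 in siCTR and 14.4 in siCDH3 (-3.42), and the list median was -0.05. CDH1 (E-cadherin) was at 322 and 439 (0.45), CEACAM6 at 44.4 and 33.3 (-0.41) and KRT80 at 49.3 and 39.5 (-0.31). Of 20 other epithelial factors compared, 1 was past 2-fold, ELF2, a broadly expressed ETS factor, with 17.6 and 7.39 (-1.15). GATA3 was at 5.09 and 2.62 (-0.75) and TFAP2A at 27.2 and 42.3 (0.62). The squamous and basal markers had a median of 0.10 over 4 genes, the gut and liver genes -0.22 over 2, the ciliated and neuroendocrine markers -0.02 over 3, the mesenchymal factors 0.19 over 3 and the family members -0.04 over 13, each with 0 past 2-fold.

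In H1299 a few genes of these lists differed more than any of the 9 factors. Among family members KLF7 was at 17.8 and 3.44 TPM (-2.08), and among epithelial factors ELF4, an ETS factor, had 60.2 and 15.9 (-1.86). Of the ciliated and neuroendocrine markers 2 of 6 were past 2-fold higher, beside 0.878% of all genes. They were CHGB, a secretory granule protein gene, with 16.5 and 56.9 (1.73), and SYP, the synaptophysin gene, with 4.18 and 13.6. Of the alveolar and club markers 1 of 5 was past 2-fold, LAMP3, a lysosomal membrane protein gene of alveolar type II cells, with 7.81 and 19.6 (1.22), while LPCAT1 had 34.3 and 16.7 (-0.996) and NKX2-1 was near 0. The medians were 0.00 for alveolar and club markers, -0.08 for squamous and basal markers over 3 genes, 0.05 for ciliated and neuroendocrine markers, -0.19 for epithelial factors over 11, 0.07 for epithelial differentiation over 11, -0.25 for mesenchymal factors over 7 and -0.14 for family members over 12, beside -0.11 for all genes. limma called 0 genes of any of these lists for the siRNA over both lines.

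**Figure D4:**
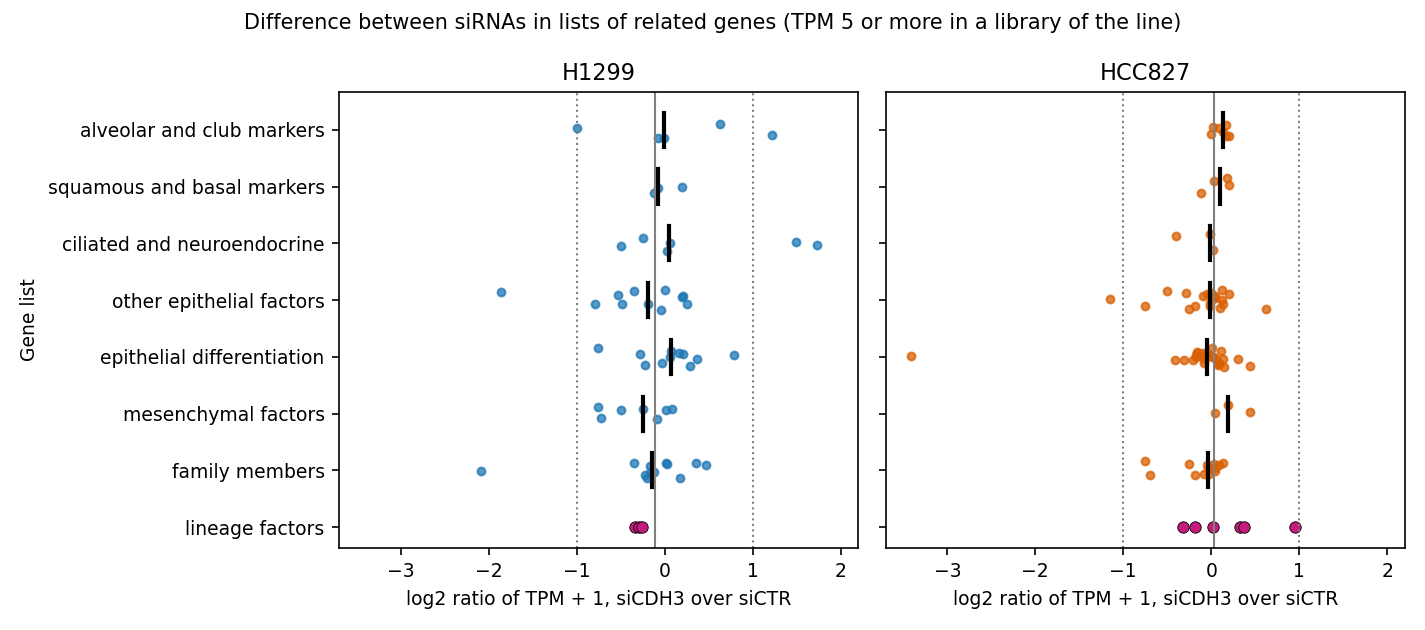
Log2 ratio of TPM + 1, siCDH3 over siCTR, for list members past the filter (1 point each, spread vertically at random), with the list median as a black bar, the median of all genes as a grey line and 2-fold as dotted lines, in H1299 (left) and HCC827 (right); the lineage factors are in magenta and have no bar. KLF7 at -2.08 and CHGB at 1.73 are far from the factors in H1299, and CLDN4 at -3.42 in HCC827.

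Genes with the most similar pattern were found as the 3 with the smallest distance to each factor in log2(TPM + 1) over the 4 libraries, after the mean of each gene was subtracted. For NKX2-1 these were PI3, an elastase inhibitor gene (14.7 TPM in HCC827 siCTR and 30.5 in HCC827 siCDH3, listed at 0 in H1299, distance 0.15), the methyltransferase gene NNMT (19.1 and 37.6, distance 0.17) and S100A8 (17.7 and 26.7, distance 0.30). For ELF3 they were SFTA2 (259 and 245, distance 0.16), SLPI and AZGP1, secreted protein genes of epithelia that were listed at 0 in H1299. For EHF they were TXNIP, SPRR2D and IL20RB, and for SOX2 S100A7, HPGD and GALNT3. For FOXA1 they were SELENBP1, SLC37A1 and GSDMD, and for KLF5 PRR15, SHROOM3 and ABHD17C. On the H1299 side they were LIX1L, FOXS1 and DLC1 for SOX9, and PGAP1, WASF1 and ERRFI1 for GATA6. With 4 libraries of 2 lines, likeness here rests mostly on the difference between the lines, and the difference between siRNAs also enters it. The 3 genes named for NKX2-1 were higher in HCC827 siCDH3 than in HCC827 siCTR, as NKX2-1 was (19.7 TPM in siCTR and 39.0 in siCDH3). That likeness is part of how they were chosen and is not a separate result.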

How the data were processed

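The authors deposited 1 table of TPM values with 1 column per library and no pooling; the genome build in the submitters' processing notes is hg19, and for aligner, counting tool and strandedness the entry is: not given in the sources used here. TPM keeps no depth. The labels name no separate cultures beyond the 4 transfections. Factors were matched by symbol, and all 196 list entries in 10 lists were matched. Log2 ratios used a pseudocount of 1, which understates changes of low genes, and a filter of TPM 5 in at least 1 library compared; genes past 2-fold were counted. Linear models with line and siRNA terms were fitted in limma 3.58.1 under R 4.3.3 to the 12941 filtered genes, on log2(TPM + 1), with a Benjamini-Hochberg adjusted p under 0.05 as the call. The labels pair libraries by cell line. The factors, lists and tests were chosen with earlier results of these data known. Named genes were the 9 factors, CDH3, neighbouring genes, up to 4 per list with the largest ratios, and 3 of nearest pattern per factor, and other list genes were named after their values were seen. Some list genes are not reported here. The scripts were tested on simulated data. Promoters are from RefSeq, GRCh38.p14, matched by symbol; overlapping genes are from GENCODE release 29. The alternatives changed the pseudocount (0.1, 5), the filter (TPM 1, TPM 20, none) and the scaling (centring on the median, TPM without mitochondrial genes, quantile normalization), used size rules of 1.5-fold and 4-fold, and fitted limma with a trend, without the block and without each library.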

Additional observations from a re-analysis of the deposited data

Results flagged for a closer look

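Between siCTR and siCDH3, 4 of the factors moved in opposite directions in the 2 lines, each with 1 library per group, so these differences were not tested. The log2 ratio in HCC827 minus that in H1299 was 1.02 for NKX2-1, 0.46 for FOXA1, -0.36 for ELF3 and 0.27 for KLF5. For NKX2-1, FOXA1 and ELF3 the H1299 values were under 1.5 TPM in both libraries. KLF5 was above 5 TPM in all 4 libraries, with a ratio of -0.26 in H1299 and 0.01 in HCC827. The opposite direction was lost for KLF5 with the median of all genes set to 0, where its HCC827 ratio was -0.015, with TPM without mitochondrial genes (-0.025) and with quantile normalization (-0.020). It was lost for NKX2-1 relative to the median of all genes, where its H1299 ratio was 0.03.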

How the results depend on the processing

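In limma all 8 fitted factors kept the direction and the call of their line difference under every alternative, including without the siRNA term (no replicate block, 8 called) and without each library in turn without that term (8 called each time), and 0 were called for the siRNA under any, including without the cell line term (no replicate block, 0 called). Most of the 8 factors entered the fit through the line in which they are high, so the kept calls are not evidence about the set. The line difference of NKX2-1 ranged from 2.67 to 6.67 and that of GATA6 from -1.99 to -1.28. That of ELF3 ranged from 5.97 to 9.38, that of SOX2 from 3.81 to 6.66 and that of FOXA1 from 3.41 to 5.45. The ends of these ranges came with pseudocounts of 0.1 and 5. FOXA2 was called too with a filter at TPM 1 and with none (9 called). In HCC827, 0 factors were past 2-fold and 1 was with a 1.5-fold rule. The number of factors whose siRNA ratio differed by at least 1 between lines was 1, and 0 with a pseudocount of 5, the median set to 0, TPM without mitochondrial genes, or a 4-fold rule. Over all genes, limma called 8138 for the line, 5088 with a filter at TPM 20 (fewer genes fitted), and, with 1 library left out and the siRNA term dropped together, 7407 without H1299 siCTR, 7666 without H1299 siCDH3, 4802 without HCC827 siCTR and 4843 without HCC827 siCDH3; the cause was not tested. For the siRNA it called 1, and 0 with no filter, without mitochondrial genes, with quantile normalization or without the cell line term. In the siRNA fit with both terms no library can be left out, since 3 libraries leave no residual degrees of freedom. A fit of the siRNA to 3 libraries without the cell line term was not run. Read depth is unknown, so precision below a few TPM cannot be given.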
